A study of Mus musculus with 8 samples.

Results

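The C-type lectin receptor genes of mouse bone marrow cells were followed across 4 cell preparations on 1-colour expression arrays, on which Cy3-labelled RNA binds DNA probes and a scanner reads the brightness of each spot. The genes were chosen by name: every non-control probe whose gene name starts with Clec and a digit or with Cd209, plus Mrc1, Mrc2, Mgl2, Ly75 and Cd207. The rule found 58 probes of 55681, for 43 genes of 34787. Of these genes, 37 had a probe that both arrays of some group measured well above background and entered the tests, among 26504 genes that did so over the whole array. The other 6 (Cd209b, Cd209c, Cd209e, Clec2h, Clec3a and Clec4f) were not. A gene that passed through 1 bright group was bound to differ somewhere. Counts over the 37, and p-values of such a gene against its dim groups, describe them and support nothing further.

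Each group had 2 arrays, 8 in all. Macrophages were raised over 7 days from marrow with M-CSF, the growth factor that drives macrophage development, and were then given IL-4 (interleukin-4) or the bacterial product LPS (lipopolysaccharide) for 24 hours, or stayed in control medium. Colony cells came from marrow kept for 7 days on an endothelial monolayer in a medium for blood stem cells (HSC media). All groups carried the same transgene, Tg(CAG-DsRed*MST)1Nagy on the B6.Cg background, which makes a red fluorescent protein from a promoter active in most cells. The labels give no age, leave open whether the paired samples were separate animals or cultures, and name neither the source of the endothelial layer nor its removal, so p-values measure only the spread between these samples. Substrate and medium changed together between colony cells and macrophages, and their parts cannot be told apart.

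C-type lectin receptors share a fold that in many members binds sugars, often with calcium, on fungi, bacteria, helminths or the body's own glycoproteins. On macrophages and dendritic cells they serve uptake, as the mannose receptor does, or signalling. Dectin-1 carries its own activating motif, Dectin-2 and Mincle signal through the adaptor FcRgamma, and both routes lead to the kinase Syk and the adaptor Card9. Others, such as DCIR1 and DCIR2, carry inhibitory motifs. The mannose receptor, Dectin-1 and the galactose-type lectins are widely used marks of macrophages given IL-4, and Mincle is known to be induced by bacterial products.

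Promoters of 4 genes are shown because these genes are known targets of the 2 stimuli and rose with them: Clec7a, Mrc1 and Mgl2 with IL-4, and Clec4e with LPS. They were picked after their values were seen. Each is the 250 bases before the gene's start, 5' to 3' on the gene's strand, from RefSeq's table for GRCm38.p6. They lie at chr6:129472780-129473029 (minus strand, the first listed start of Clec7a), chr2:14229164-14229413 (plus, Mrc1), chr11:70130107-70130356 (plus, Mgl2) and chr6:123289872-123290121 (minus, Clec4e). Capitals mark every match, on either strand, to 6 short motifs.
Clec7a: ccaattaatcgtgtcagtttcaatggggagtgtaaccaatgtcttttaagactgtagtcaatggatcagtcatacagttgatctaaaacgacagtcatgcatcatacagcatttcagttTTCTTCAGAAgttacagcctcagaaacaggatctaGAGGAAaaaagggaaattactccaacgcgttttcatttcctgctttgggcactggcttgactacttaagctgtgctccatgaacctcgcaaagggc
Mrc1: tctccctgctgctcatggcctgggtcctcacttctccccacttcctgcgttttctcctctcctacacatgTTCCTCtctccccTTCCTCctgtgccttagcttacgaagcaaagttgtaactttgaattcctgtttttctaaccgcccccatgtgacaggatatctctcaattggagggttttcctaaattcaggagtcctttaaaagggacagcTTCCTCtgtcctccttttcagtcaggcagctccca
Mgl2: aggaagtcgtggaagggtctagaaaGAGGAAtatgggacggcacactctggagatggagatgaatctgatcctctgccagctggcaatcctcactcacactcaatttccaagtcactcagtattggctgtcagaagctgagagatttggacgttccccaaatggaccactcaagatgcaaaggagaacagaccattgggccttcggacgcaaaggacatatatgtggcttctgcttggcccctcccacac
Clec4e: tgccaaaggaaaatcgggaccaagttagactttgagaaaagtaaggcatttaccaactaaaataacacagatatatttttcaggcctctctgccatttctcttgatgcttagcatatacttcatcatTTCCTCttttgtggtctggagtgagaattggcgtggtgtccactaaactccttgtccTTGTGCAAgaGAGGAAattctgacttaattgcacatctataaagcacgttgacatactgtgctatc

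The motifs were TTCNNNNGAA (the spacing that STAT6, the factor below the IL-4 receptor, prefers), GGGNNTTTCC (NF-kB), GAAANNGAAA (interferon response), GAGGAA (PU.1), TTGCNNAA (C/EBP) and TGANTCA (AP-1), and matches of different motifs could share bases. The table held promoters for 36 of the 43 genes, 39 in all. The printed Clec7a promoter holds TTCTTCAGAA, starting 131 bases before the start, and a PU.1 match. The Mrc1 promoter holds 3 PU.1 matches and that of Mgl2 holds 1, and TTCNNNNGAA was in neither window. In the Clec4e promoter there were 2 PU.1 matches and 1 C/EBP match, and the NF-kB letters were not in this window. Over all members, TTCNNNNGAA was found in 6 promoters of 5 genes (Clec7a, Clec4a1, Clec4b2, Clec5a and Cd209e), against 5.85% of 32851 mouse promoters of the same length. GAGGAA was found in 19 of the 39, against 23.3% of all. A match is a description of letters, not of a bound site.

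The share of spots well above background was 62.4% to 67.5% on 7 arrays. On LPS replicate 2 it was 72.2%, and that array also had 257 spots marked uneven or outlying, against 91 to 137 elsewhere. Values given below are normalised intensities, rounded to 3 digits: the background-subtracted signal after every array was scaled to the same 75th percentile. The stimuli were visible in known target genes. Retnla, an IL-4 target, had 375000 and 407000 units on the IL-4 arrays and was not well above background in control, at least 39700-fold higher (adjusted p = 6.2e-05). Nos2, the inducible nitric oxide synthase gene, had 21800 and 24000 units on the LPS arrays, against 751 and 656 on the control arrays (log2 fold change 5.03 ± 0.10, SE, adjusted p = 2.7e-06). Of a panel of 6 such genes, 3 rose with IL-4 (Retnla, Arg1 and Chil3), and 5 rose and 1 fell with LPS. All 10 macrophage markers were well above background in all 4 groups, but their summed signal was 111000 to 114000 in colony cells, against 1320000 to 1330000 in control.

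With IL-4, 10 of the 37 lectin genes passed the test (6 rose and 4 fell), while 19.0% of all genes tested were called (9.87% higher and 9.18% lower). The genes for the mannose receptor, Dectin-1 and both galactose-type lectins rose, and those for Mincle, Dectin-2 and their relative MCL fell. With LPS, 23 were called (11 rose and 12 fell), against 54.7% of all genes (28.9% higher and 25.8% lower). Clec10a, Mrc1 and Clec7a, which rose with IL-4, fell with LPS, and Clec4e, which fell with IL-4, rose. In colony cells against control 30 were called, 5 that rose and 25 that fell, with 71.4% called over all genes (24.7% higher and 46.7% lower). Against IL-4, colony cells had 31 called genes, 6 that rose and 25 that fell, with 71.7% called over all genes (24.3% higher and 47.4% lower). The median log2 difference of the 37 genes was -0.07 with IL-4, 0.00 with LPS, -2.14 in colony cells against control and -2.15 in colony cells against IL-4. Over all genes tested the medians were -0.01, 0.07, -0.35 and -0.37 in the same order. The 3 comparisons with control share the same 2 control arrays, so they are not independent of each other. A call means an adjusted p under 0.05 in limma, with the Benjamini-Hochberg adjustment made over all genes. With 2 arrays per group, an exact permutation test cannot go below 0.333.

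**Figure D1:**
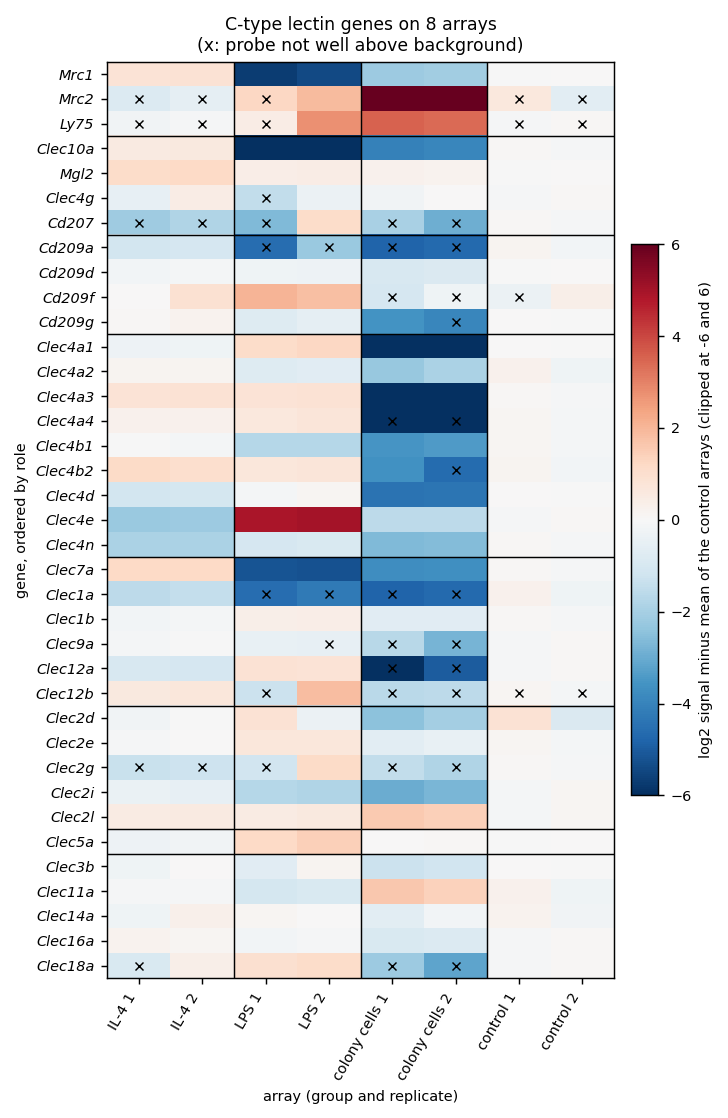
Heat map of the 37 lectin genes (rows, ordered by role) on the 8 arrays (columns, by group and replicate), coloured by log2 signal minus the mean of the 2 control arrays and clipped at -6 and 6, with a cross where the probe was not well above background. Blue fills most of the colony-cell columns, where 25 genes fell, and Mrc2 and Ly75 are red there.

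The fall in colony cells came with a change in the makeup of the RNA. In bulk RNA, fewer cells of a type and less RNA per cell cannot be told apart. All 10 pan-leukocyte markers fell, with a median log2 change of -3.10 and a summed signal of 91200 to 92200 in colony cells, against 725000 to 747000 in control, and 9 of 10 macrophage markers fell. Of 10 fibroblast and mesothelial markers 9 rose and Col1a2 fell. The sum of the 10 was 344000 to 359000 in colony cells, against 356 to 437 in control. Dcn, Pdgfra, Lum, Msln and Upk3b were not well above background in control. Mast cell markers rose in 5 of 6 cases (sum 3500 to 3540 in colony cells, against 362 to 469 in control). Of these, Cpa3, Mcpt4, Fcer1a and Ms4a2 were not well above background in control. A marker that passed the filter through its colony-cell arrays alone was bound to differ from its dim groups. These counts of risen markers are therefore a description and no separate support. Of 10 endothelial markers 8 were measured, of which 3 rose (Esam at least 451-fold, Tek at least 4.03-fold and Egfl7 2.92-fold) and 4 fell, Cdh5 and Vwf among them. They summed to 14000 to 14100 in colony cells, against 21600 to 24600 in control, with Cdh5, Emcn and Erg not well above background in colony cells and Tek, Emcn, Erg and Esam not in control. Most of that sum was Kdr (8370 and 7770 units) and Esam (4110 and 4810) in colony cells. In control it was mostly Kdr (12200 and 13800) and Vwf (8940 and 10300). Neutrophil markers had 3 of 8 that rose and 1 that fell, and of 7 natural killer, T and B cell markers 3 were measured and 2 fell. The part of these lists in the changes of the lectin genes was not tested.

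Markers moved with the stimuli too. With IL-4, 7 of 10 macrophage markers fell and none rose (sum 973000 to 1000000 with IL-4, against 1320000 to 1330000 in control). Of the dendritic cell markers, Itgax and Batf3 rose with IL-4 by 33.8-fold and 14.2-fold and 1 fell (sum 214000 to 216000 with IL-4, against 171000 to 181000 in control). Most of that sum was Siglech, at 128000 units on both IL-4 arrays and 134000 and 145000 in control. Itgax had 43600 and 43900 units with IL-4. With LPS, 4 macrophage markers rose and 6 fell (sum 1040000 to 1200000 with LPS), and 2 dendritic cell markers rose and 4 fell (sum 120000 to 121000). Of the fibroblast and mesothelial markers 4 rose with LPS (Dcn at least 51.4-fold, Upk3b at least 9.32-fold, Lum at least 2.41-fold, and Pdgfrb 13.1-fold) and 2 fell, with a sum of 1040 to 1190 with LPS, against 356 to 437 in control. Their part in the changes with IL-4 and LPS was not tested.

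The mannose receptor family takes up glycoproteins and collagen, and its 3 genes went different ways. Mrc1, the macrophage mannose receptor, was read by a probe at chr2:14253273-14253332 (build mm9, plus strand). It had 44700 and 45900 units with IL-4, 492 and 585 with LPS, 5550 and 5950 in colony cells, and 24600 and 26000 in control. No group overlaps another: IL-4 lies above control, and colony cells and LPS lie below it. The rise with IL-4 was 1.79-fold (log2 0.84 ± 0.10, adjusted p = 0.0047), the fall with LPS 47.1-fold (-5.56 ± 0.10, adjusted p = 2.3e-06) and that in colony cells 4.40-fold (-2.14 ± 0.10, adjusted p = 1.6e-05). Colony cells also lay below IL-4, by 7.89-fold (-2.98 ± 0.10, adjusted p = 4.8e-06).

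Mrc2, which codes for the collagen receptor Endo180 of fibroblasts and other stromal cells, was bright only in colony cells among the groups measured, at 284 and 254 units. Its probe at chr11:105211978-105212037 (mm9, plus strand) read 2.22 and 2.74 with IL-4, 9.17 and 14.9 with LPS, and 6 and 2.58 in control, and was well above background on 1 of these 6 arrays, LPS replicate 2. In colony cells Mrc2 was higher than in control by at least 27.3-fold (adjusted p = 7.7e-05) and than with IL-4 by at least 28.8-fold (adjusted p = 5.1e-05). Mrc2 passed the filter through the colony-cell arrays alone, so these p-values describe it and are no separate support. Its other probes, each well above background on 2 arrays, passed in the same way, so their shared direction is no separate support. Their fitted log2 differences against control, 3.09 and 3.85, need not be measured folds. For LPS the bound was 1.18-fold higher (adjusted p = 0.027), and the call was lost without LPS replicate 2 (adjusted p = 0.11), without control replicate 2 (0.073) and without either colony-cell array (0.05). Normexp, another background correction, was run with an offset of 50 added to every signal, which shrinks log2 differences between dim spots. A call lost with it on a dim gene, here or below, therefore does not decide whether the groups differ. With normexp the LPS difference of Mrc2 was -0.20 and was not called (adjusted p = 0.29). Fitted by themselves, its other probes gave 0.03 (adjusted p = 0.94) and 1.34 (adjusted p = 0.033) with LPS. The fitted log2 difference between colony cells and control, 6.09, was 6.70 without control replicate 1 and 5.48 without control replicate 2. Of the 10 fibroblast and mesothelial markers given above, 9 rose in colony cells and Col1a2 fell (log2 -0.9, adjusted p = 0.0019). With LPS, 4 of them rose and Col1a1 and Col1a2 fell, and their part was not tested.

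Ly75, the endocytic receptor DEC-205 of dendritic cells and thymic epithelium, had 31.3 and 28.1 units in colony cells. With IL-4 it had 2.36 and 2.58, with LPS 3.69 and 18.2, and in control 2.61 and 2.79. Only the colony-cell arrays and LPS replicate 2 were well above background, and the LPS arrays lie far apart. Ly75 too passed the filter through colony cells alone, so its p-values for colony cells are a description. Colony cells were at least 3.01-fold higher than control (adjusted p = 0.0057) and at least 3.18-fold higher than IL-4 (adjusted p = 0.0049), but with normexp the log2 difference was 0.03 and was not called (adjusted p = 0.9). Of 8 dendritic cell markers 7 were measured. In colony cells 2 of them rose (Ccr7 and Zbtb46) and 4 fell, with a sum of 93700 to 96200 in colony cells, against 171000 to 181000 in control. Most of that sum was Siglech, at 88000 and 90500 units in colony cells and 134000 and 145000 in control. The part of these markers was not tested.

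**Figure D2:**
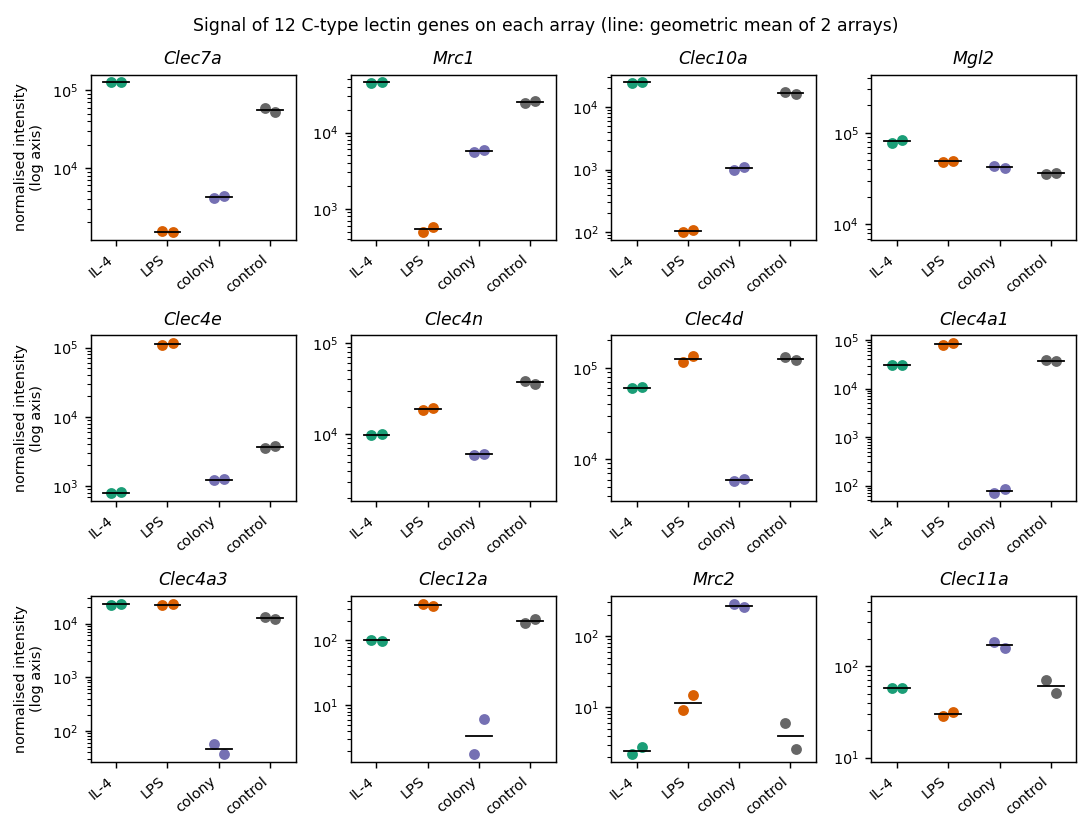
Normalised intensity (log axis, scale set per panel) of 12 lectin genes on each array, with a line at the geometric mean of the 2 arrays of a group. Clec7a, Mrc1 and Clec10a are highest with IL-4 and lowest with LPS, Clec4e is highest with LPS, and Clec4a1 and Clec4a3 lie far lower in colony cells than in the other groups.

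Clec10a and Mgl2 are neighbouring genes on chromosome 11 for the 2 mouse galactose-type lectins (CD301a and CD301b), which bind galactose and N-acetylgalactosamine. Clec10a (probe chr11:69984254-69984313, mm9, plus strand) had 24000 and 24800 units with IL-4, 100.1 and 107.3 with LPS, 992 and 1090 in colony cells, and 17400 and 15800 in control. The 4 groups are fully apart, with IL-4 highest and LPS lowest. Clec10a rose 1.47-fold with IL-4 (log2 0.56 ± 0.09, adjusted p = 0.011), fell 160-fold with LPS (-7.32 ± 0.09, adjusted p = 1.1e-06) and fell 16-fold in colony cells (-4.00 ± 0.09, adjusted p = 1.1e-06). Against IL-4, colony cells were 23.5-fold lower (-4.55 ± 0.09, adjusted p = 8.4e-07). The IL-4 call was lost without control replicate 2 (adjusted p = 0.052) and without either IL-4 array (0.063 and 0.082).

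Mgl2 (probe chr11:69950985-69951044, mm9, plus strand) did not follow its neighbour under LPS or in colony cells. It had 78400 and 82800 units with IL-4, 48200 and 49900 with LPS, 43000 and 41300 in colony cells, and 35600 and 36800 in control. IL-4 stands highest, and the other 3 groups lie close together in the same order on both arrays. The rise with IL-4 was 2.23-fold (1.16 ± 0.07, adjusted p = 4.4e-04). Those with LPS (0.44 ± 0.07, adjusted p = 0.0031) and in colony cells (0.22 ± 0.07, adjusted p = 0.03) were small. With median centring both calls were lost, at log2 differences of 0.26 (adjusted p = 0.16) with LPS and 0.08 (adjusted p = 0.62) in colony cells, and the colony-cell call was also lost without any 1 of the control, IL-4 or colony-cell arrays (adjusted p = 0.054 to 0.14). Against IL-4, Mgl2 was 1.91-fold lower in colony cells (-0.93 ± 0.07, adjusted p = 8.7e-05). Whether the changes of the 2 neighbours differ from each other was not tested.

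Cd207, which codes for Langerin of Langerhans cells, was weak, and well above background on 3 of 8 arrays (both control arrays and LPS replicate 2): 4.85 and 6.05 units with IL-4, 3.38 and 44.8 with LPS, 5.56 and 2.74 in colony cells, and 22.4 and 19.8 in control. No difference was called, and the LPS arrays differ from each other more than any groups do. Without LPS replicate 2 the LPS difference was -2.64 and passed the test (adjusted p = 0.0068). Clec4g, the liver and lymph node endothelial lectin LSECtin, reached 40.5 units on its brightest array, an IL-4 one, with no call in any comparison. Clec4f, the Kupffer cell receptor, was well above background on 1 array of 8.

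The CD209 genes are the mouse relatives of human DC-SIGN, a receptor for mannose-rich and fucosylated sugars. Of 7 genes 4 were measured, and none passed the test with IL-4, where 19.0% of all genes were called. Cd209a, the member named for DC-SIGN, had 22.1 and 23.4 units with IL-4, 1.96 and 9.97 with LPS, 1.67 and 1.88 in colony cells, and 52.5 and 41.9 in control. It was not well above background on any LPS or colony-cell array. It was at least 4.69-fold lower with LPS (adjusted p = 0.0097) and at least 5.88-fold lower in colony cells (adjusted p = 0.0018), both against control. The fitted log2 change with LPS was -3.41, and it was -4.58 without LPS replicate 2, -2.23 without LPS replicate 1 and -3.24 with the call lost (adjusted p = 0.051) without control replicate 1. Against IL-4, colony cells were at least 2.86-fold lower (adjusted p = 0.0049).

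Cd209d, also called SIGNR3, had 259 and 273 units with IL-4, 245 and 239 with LPS, 150 and 162 in colony cells, and 292 and 297 in control. Colony cells lie lowest, and control highest by a small margin. The LPS difference was -0.28 ± 0.07 (adjusted p = 0.019, lost at 0.052 to 0.073 without either control array or LPS replicate 2), and in colony cells the gene fell 1.89-fold (-0.92 ± 0.07, adjusted p = 1.1e-04). Cd209f went the other way with LPS. It had 10.6 and 19.4 units with IL-4, 42.6 and 36.6 with LPS, 5.1 and 8.54 in colony cells, and 8.2 and 13.1 in control. LPS stands alone above the rest. That is a 3.82-fold rise (1.93 ± 0.41, adjusted p = 0.0099), but 1 control array was not well above background, and with normexp the difference was 0.23 and was not called (adjusted p = 0.14). Without control replicate 1 it was 1.60 and just missed the threshold (adjusted p = 0.053). Cd209g fell with LPS (-0.66 ± 0.15, adjusted p = 0.012, or 0.052 without control replicate 1) and in colony cells (-3.75 ± 0.15, adjusted p = 7.4e-06), where replicate 2 was not well above background.

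The Dectin-2 and DCIR cluster holds 9 genes within 350 kb on chromosome 6, all measured, which moved in both directions with the stimuli and all fell in colony cells. It codes for activating receptors that pair with FcRgamma (Dectin-2, Mincle and MCL) and for the DCIR receptors and their relatives. With IL-4, 1 gene rose and 3 fell, where 19.0% of all genes were called. With LPS, 4 rose and 3 fell, where 54.7% of all genes were called, and in colony cells 46.7% of all genes were called lower.

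**Figure D3:**
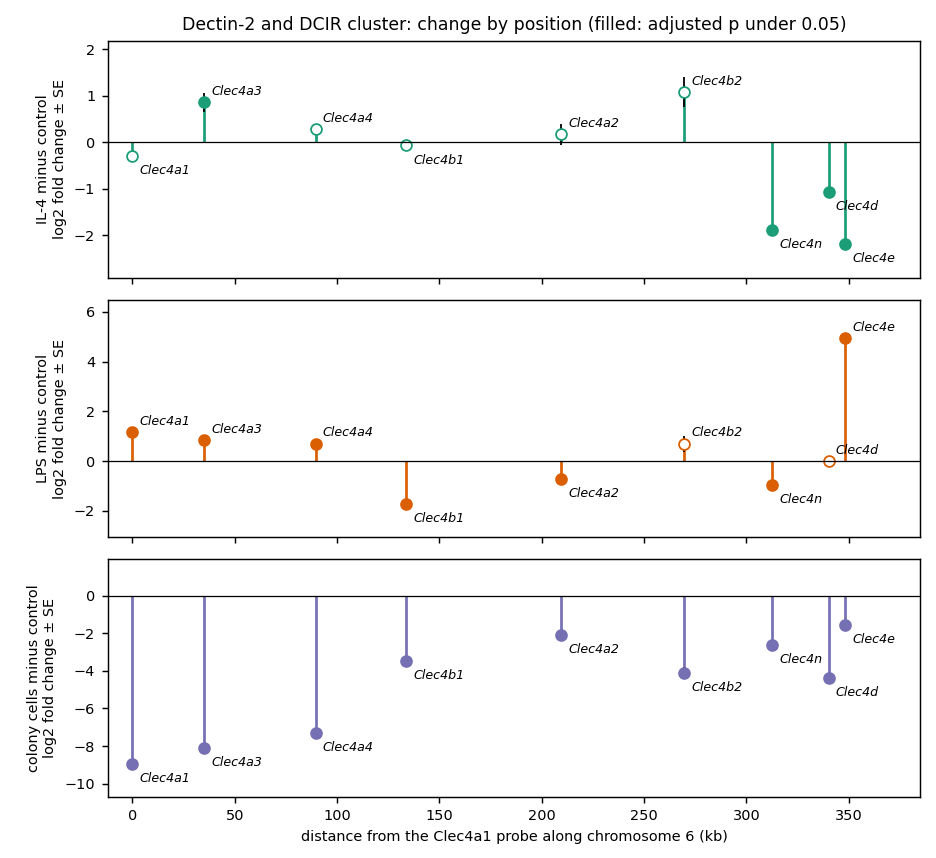
Log2 fold change ± SE against control (2 arrays per group) for the 9 genes of the Dectin-2 and DCIR cluster, plotted by the distance of each probe from that of Clec4a1 in kb, for IL-4, LPS and colony cells from top to bottom, filled where adjusted p was under 0.05. The 3 genes that fell with IL-4 (Clec4n, Clec4d and Clec4e) sit side by side at the right end, Clec4e stands alone with LPS at 4.94, and all 9 points lie below 0 in colony cells.

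Clec4e, the gene of Mincle, a receptor for mycobacterial cord factor, was read by a probe at chr6:123232878-123232937 (mm9, minus strand). It had 793 and 825 units with IL-4, 109000 and 117000 with LPS, 1220 and 1250 in colony cells, and 3560 and 3810 in control. LPS stands far above the rest, control next, then colony cells, and IL-4 lowest, with no overlap. The rise with LPS was 30.8-fold (4.94 ± 0.07, adjusted p = 1.4e-06), and the falls were 4.55-fold with IL-4 (-2.19 ± 0.07, adjusted p = 7.8e-05) and 2.98-fold in colony cells (-1.57 ± 0.07, adjusted p = 1.5e-05). Clec4e is 1 of the 6 genes that were higher in colony cells than with IL-4 (0.61 ± 0.07, adjusted p = 7.0e-04).

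Clec4n codes for Dectin-2, a receptor for fungal alpha-mannans (probe chr6:123196969-123197028, mm9, plus strand). It had 9770 and 9960 units with IL-4, 18400 and 19600 with LPS, 5920 and 6110 in colony cells, and 38200 and 35500 in control. All 3 other groups lie below control, and colony cells lie lowest. The gene fell 3.73-fold with IL-4 (-1.90 ± 0.07, adjusted p = 1.2e-04), 1.93-fold with LPS (-0.95 ± 0.07, adjusted p = 1.9e-04) and 6.12-fold in colony cells (-2.61 ± 0.07, adjusted p = 2.3e-06). Colony cells were below IL-4 by 1.64-fold (-0.71 ± 0.07, adjusted p = 3.4e-04).

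Clec4d, the gene of MCL, a partner of Mincle, lies between these genes (probe chr6:123224788-123224847, mm9, plus strand). It had 59500 and 60900 units with IL-4, 116000 and 136000 with LPS, 5860 and 6060 in colony cells, and 130000 and 122000 in control. The LPS and control arrays overlap, while IL-4 and colony cells lie below both. With IL-4 the fall was 2.09-fold (-1.07 ± 0.10, adjusted p = 0.0017) and in colony cells 21.2-fold (-4.40 ± 0.10, adjusted p = 1.0e-06). The LPS difference was 0.00 ± 0.10 and was not called. Against IL-4, colony cells were 10.1-fold lower (-3.34 ± 0.10, adjusted p = 2.5e-06).

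Among the DCIR genes, Clec4a1 and Clec4a3 had the largest measured falls of the lectin genes in colony cells, Clec4a4 beside them having only a bound. Clec4a1 (Dcir4, probe chr6:122884578-122884637, mm9, plus strand) had 30400 and 30700 units with IL-4, 80100 and 88000 with LPS, 69.6 and 84.3 in colony cells, and 38200 and 36400 in control. Colony cells lie apart from all macrophage arrays by more than 2 orders of magnitude. The fall was 487-fold (-8.93 ± 0.11, adjusted p = 4.5e-07) against control and 399-fold (-8.64 ± 0.11, adjusted p = 4.6e-07) against IL-4, and LPS gave a rise of 2.25-fold (1.17 ± 0.11, adjusted p = 4.3e-04).

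Clec4a3 (Dcir3) had 22600 and 23400 units with IL-4, 22200 and 22900 with LPS, 58.2 and 37.1 in colony cells, and 13100 and 12200 in control. Both stimulated groups lie above control, and colony cells far below. The fall in colony cells was 273-fold (-8.09 ± 0.21, adjusted p = 1.7e-06) against control and 494-fold (-8.95 ± 0.21, adjusted p = 1.3e-06) against IL-4. The rises with IL-4 (0.86 ± 0.21, adjusted p = 0.04) and LPS (0.83 ± 0.21, adjusted p = 0.018) lost their calls with median centring (0.058 and 0.053). The IL-4 call was also lost without any 1 of the control, IL-4 or LPS arrays (adjusted p = 0.058 to 0.17), and the LPS call without either control array or LPS replicate 2 (0.058 to 0.081).

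Clec4a4, the inhibitory receptor DCIR2, had 304 and 301 units with IL-4, 393 and 416 with LPS, 1.52 and 1.68 in colony cells, and 275 and 227 in control. It was not well above background in colony cells, at least 31.3-fold lower than control (adjusted p = 5.4e-07) and at least 38.0-fold lower than IL-4 (adjusted p = 5.3e-07), and rose 1.62-fold with LPS (0.70 ± 0.11, adjusted p = 0.0036). Clec4a2, the inhibitory receptor DCIR1, fell 4.27-fold in colony cells (-2.09 ± 0.22, adjusted p = 3.5e-04) and 1.66-fold with LPS (-0.73 ± 0.22, adjusted p = 0.033). The LPS call was lost without control replicate 1 or any 1 IL-4 or LPS array (0.06 to 0.11). Between colony cells and control the pan-leukocyte markers spread over log2 changes of -4.13 to -1.60, and the macrophage markers over -4.72 to 0.46, Itgam being the one that rose.

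Clec4b1, the gene of the activating receptor DCAR, had 4910 and 4690 units with IL-4, 1520 and 1510 with LPS, 433 and 474 in colony cells, and 5370 and 4690 in control. IL-4 and control overlap, LPS lies below them and colony cells lowest. The falls were 3.31-fold with LPS (-1.73 ± 0.09, adjusted p = 5.1e-05) and 11.1-fold in colony cells (-3.47 ± 0.09, adjusted p = 2.0e-06). A second probe of this gene was well above background on 6 of 8 arrays. It gave larger fitted falls, at log2 changes of -3.91 with LPS and -7.75 in colony cells, which need not be measured folds. Clec4b2, a close relative, had 219 and 199 units with IL-4, 157 and 164 with LPS, 8.05 and 4.06 in colony cells, and 111 and 88.2 in control. It fell in colony cells, with fitted log2 differences of -4.11 ± 0.32 against control (adjusted p = 1.1e-04) and -5.19 ± 0.32 against IL-4 (adjusted p = 4.3e-05), in which colony-cell replicate 2 was not well above background. The stimuli gave values of 1.08 ± 0.32 with IL-4 (adjusted p = 0.074) and 0.70 ± 0.32 with LPS (adjusted p = 0.12), which missed the threshold.

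The Dectin-1 cluster lies farther along chromosome 6, and of its 6 genes 1 rose and 1 fell with IL-4 (19.0% of all genes called), 1 rose and 2 fell with LPS (54.7% of all genes called, so near the same share), and 5 fell in colony cells (46.7% of all genes called lower). Clec7a codes for Dectin-1, the receptor for fungal beta-glucan (probe chr6:129411739-129411798, mm9, minus strand; its promoter is printed above). It had 128000 and 127000 units with IL-4, 1530 and 1490 with LPS, 4120 and 4350 in colony cells, and 58600 and 51900 in control. The 4 groups do not overlap, with IL-4 highest, then control, colony cells and LPS. The rise with IL-4 was 2.31-fold (1.21 ± 0.08, adjusted p = 7.5e-04), and the falls were 36.5-fold with LPS (-5.19 ± 0.08, adjusted p = 1.7e-06) and 13.0-fold in colony cells (-3.70 ± 0.08, adjusted p = 1.1e-06). Colony cells lay 30.1-fold below IL-4 (-4.91 ± 0.08, adjusted p = 6.5e-07).

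Clec1a, which codes for a receptor of fungal melanin, had 15 and 16.5 units with IL-4, 1.88 and 2.37 with LPS, 1.58 and 1.75 in colony cells, and 52.5 and 37.9 in control. Control lies highest, IL-4 between, and the LPS and colony-cell arrays were not well above background. It fell 2.83-fold with IL-4 (-1.5 ± 0.19, adjusted p = 0.0054), and was at least 4.46-fold lower with LPS (adjusted p = 2.5e-05) and at least 5.6-fold lower in colony cells (adjusted p = 8.3e-06).

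Clec12a, the gene of the inhibitory receptor MICL of myeloid cells, had 102 and 98.7 units with IL-4, 365 and 343 with LPS, 1.78 and 6.23 in colony cells, and 185 and 210 in control. The groups are apart, with LPS highest. The colony-cell arrays, not well above background, differ most from each other, and the fitted log2 change there, -5.89, was -4.98 without replicate 1 and -6.79 without replicate 2. In colony cells it was at least 24.7-fold lower than control (adjusted p = 2.2e-04) and at least 12.6-fold lower than IL-4 (adjusted p = 4.8e-04). The differences with IL-4 (-0.98 ± 0.55, adjusted p = 0.29) and LPS (0.84 ± 0.55, adjusted p = 0.24) missed the threshold, and both passed it without either colony-cell array (adjusted p = 0.0081 with IL-4 and 0.0025 with LPS, whichever of the 2 was left out).

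Clec1b, the gene of CLEC-2, the platelet receptor for podoplanin, had 202 and 207 units with IL-4, 290 and 298 with LPS, 143 and 142 in colony cells, and 237 and 215 in control. On this probe LPS is highest and colony cells lowest. The fall in colony cells (-0.67 ± 0.07, adjusted p = 4.8e-04) was seen on all 3 probes, at -1.96 and -1.89 on the others. The LPS rise (0.38 ± 0.07, adjusted p = 0.0073) was not, since the other probes gave -0.54 (adjusted p = 0.031) and -0.15 (adjusted p = 0.28). Platelet and megakaryocyte markers summed to 61800 to 62600 in colony cells, against 39800 to 45200 in control. Most of that sum was Pf4, at 60800 and 61600 units in colony cells. Of the 6 markers 4 rose and 1 fell (Treml1, 466 and 491 units in colony cells, against 2570 and 2090 in control), and their part was not tested.

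Clec9a, the gene of DNGR-1, by which cross-presenting dendritic cells sense dead cells, was weak on every array and well above background on 5 of 8: 11.9 and 13.0 units with IL-4, 9.71 and 9.34 with LPS, 4.19 and 1.87 in colony cells, and 12.3 and 13.9 in control. Colony cells were at least 1.64-fold lower than control (adjusted p = 0.0023), with a fitted change of -2.22, or -2.81 without colony-cell replicate 1, and the other groups were not called apart from control. Clec12b, an inhibitory receptor gene, had 2.93 and 26.0 units on the LPS arrays, against 7.68 and 6.77 in control, and no call in any comparison.

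**Figure D4:**
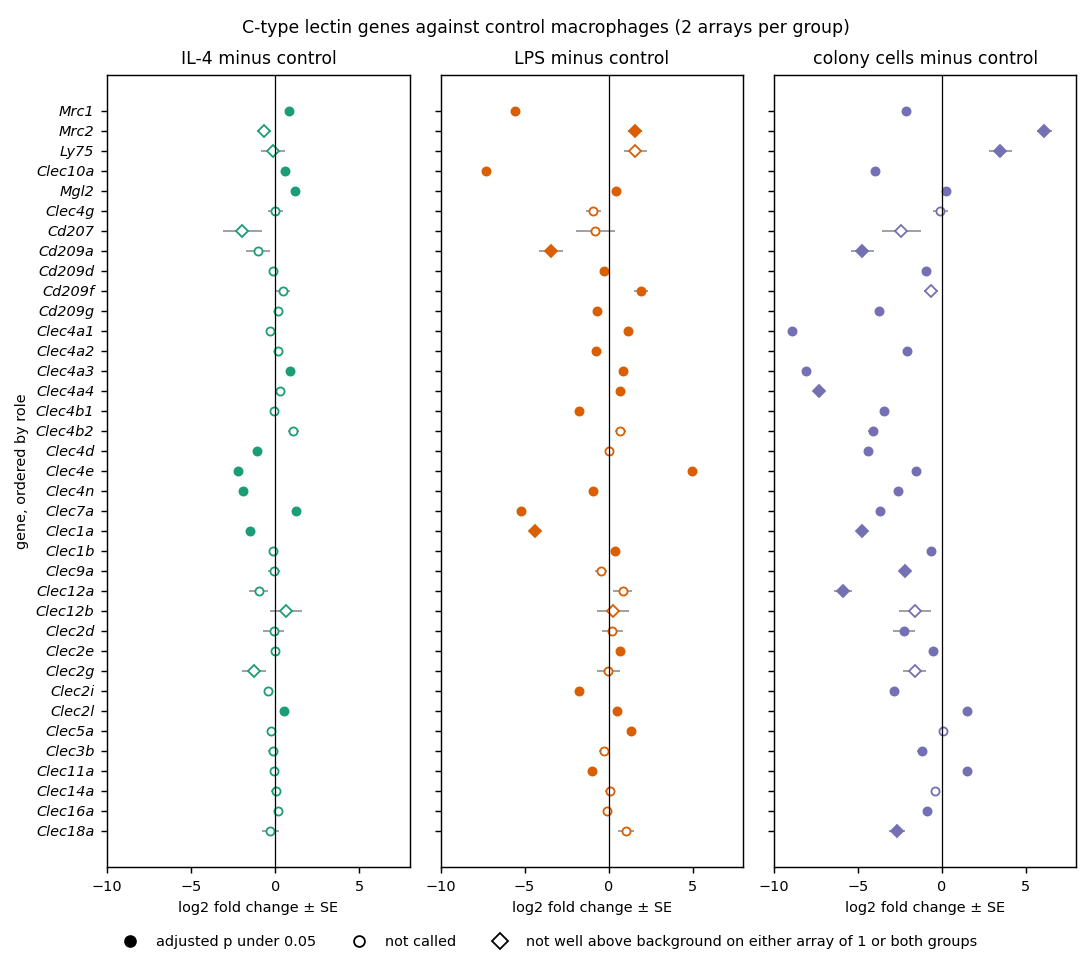
Log2 fold change ± SE against control (2 arrays per group) of the 37 lectin genes, with panels for IL-4, LPS and colony cells. Filled points had an adjusted p under 0.05, and diamonds mark genes not well above background on either array of 1 or both groups, whose plotted value is not a measured fold. The IL-4 values stay between -2.19 and 1.21, the LPS values reach from -7.32 to 4.94, and the colony-cell values from -8.93 to 6.09.

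The Clec2 genes code for ligands of natural killer cell receptors of the NKR-P1 family. Clec2d (Clr-b, whose product on healthy cells restrains natural killer cells) had 1330 and 1510 units with IL-4, 2730 and 1170 with LPS, 273 and 371 in colony cells, and 2750 and 841 in control. The replicates of control and LPS differ so much that only colony cells stand apart. The fall there was 4.78-fold (-2.26 ± 0.65, adjusted p = 0.023), but it was -1.40 with the call lost (adjusted p = 0.08) without control replicate 1, -3.11 without control replicate 2, and not called without either colony-cell array (adjusted p = 0.1 and 0.059). Clec2i, the gene of Clr-g, had 340 and 321 units with IL-4, 138 and 131 with LPS, 57.6 and 67.8 in colony cells, and 411 and 497 in control. It fell 3.36-fold with LPS (-1.75 ± 0.13, adjusted p = 1.5e-04) and 7.23-fold in colony cells (-2.85 ± 0.13, adjusted p = 1.2e-05).

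Clec2l had 32.8 and 33.8 units with IL-4, 32.0 and 34.6 with LPS, 68.9 and 62.0 in colony cells, and 21.7 and 24.7 in control. Control lies lowest and colony cells highest. The rise in colony cells was 2.82-fold (1.5 ± 0.10, adjusted p = 5.5e-05), and those with IL-4 (0.53 ± 0.10, adjusted p = 0.019, or 0.067 to 0.11 without control replicate 1 or either IL-4 array) and LPS (0.52 ± 0.10, adjusted p = 0.0065) were smaller. Colony cells were also 1.96-fold higher than IL-4 (0.97 ± 0.10, adjusted p = 3.3e-04). With normexp no rise against control was called, at 0.00 with IL-4, -0.12 with LPS and 0.21 in colony cells. Clec2e rose with LPS (0.68 ± 0.11, adjusted p = 0.0036) and fell in colony cells (-0.56 ± 0.11, adjusted p = 0.0054), and Clec2g, at 5.27 to 40.1 units over the 8 arrays, was called in no comparison.

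Clec5a codes for MDL-1, a receptor that pairs with the adaptor DAP12. It had 16.7 and 17.7 units with IL-4, 47.2 and 55.4 with LPS, 20.7 and 21.8 in colony cells, and 20.2 and 20.9 in control. LPS lies above the rest. The rise with LPS was 2.48-fold (1.31 ± 0.10, adjusted p = 1.7e-04), and with normexp it was 0.20 and not called (adjusted p = 0.15). Colony cells did not pass the test against control (0.05 ± 0.10, adjusted p = 0.68), and with normexp they were lower (-0.49, adjusted p = 0.0047). Against IL-4 they were 1.24-fold higher (0.31 ± 0.10, adjusted p = 0.032), a call lost with median centring (0.13, adjusted p = 0.31) and without any 1 IL-4 or colony-cell array (adjusted p = 0.077 to 0.14). With normexp that difference was -0.23 (adjusted p = 0.096).

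The remaining members have other roles. Clec11a codes for a secreted growth factor of bone marrow stroma and had 57.6 and 57.5 units with IL-4, 28.7 and 31.7 with LPS, 183 and 157 in colony cells, and 70.6 and 50.8 in control. Colony cells lie above all other arrays and LPS below them. Clec11a rose 2.84-fold in colony cells (1.5 ± 0.17, adjusted p = 5.5e-04) and fell 1.98-fold with LPS (-0.99 ± 0.17, adjusted p = 0.0048). Against IL-4, colony cells were 2.95-fold higher (1.56 ± 0.17, adjusted p = 4.7e-04). Clec14a, an endothelial adhesion gene, had 13.8 and 20.3 units with IL-4, 17.6 and 16.6 with LPS, 10.5 and 14.5 in colony cells, and 18.8 and 14.3 in control. Its groups overlap and no difference was called (colony cells against control -0.41 ± 0.26, adjusted p = 0.2). Clec3b, the gene of the plasminogen-binding protein tetranectin, fell in colony cells (-1.21 ± 0.29, adjusted p = 0.011, or 0.051 without control replicate 1 and 0.057 without colony-cell replicate 1), as did Clec16a (-0.86 ± 0.08, adjusted p = 2.8e-04), which acts in mitophagy. Clec18a was at least 2.00-fold lower there (adjusted p = 0.0037), while its second probe gave -0.68 and no call (adjusted p = 0.5).

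Below these receptors, a list of 43 genes for adaptors, kinases, phosphatases and transcription factors was read, of which 42 were measured. With IL-4, 8 rose and 18 fell, where 19.0% of all genes were called. The largest changes were in Egr2 (3.93 ± 0.10, adjusted p = 3.0e-05), a transcription factor gene, Il1b (-2.97 ± 0.18, adjusted p = 4.6e-04), the gene of interleukin-1 beta, Fyn (2.01 ± 0.11, adjusted p = 3.6e-04) and Malt1 (1.38 ± 0.10, adjusted p = 9.4e-04). With LPS, 20 rose and 10 fell, where 54.7% of all genes were called, led by Il1b (7.54 ± 0.18, adjusted p = 3.8e-06), Rasgrp3 (-6.69 ± 0.07, adjusted p = 1.1e-06), Egr2 (-3.61 ± 0.10, adjusted p = 4.9e-06) and Malt1 (2.53 ± 0.10, adjusted p = 1.9e-05). Median log2 changes of the 42 genes were -0.13 with IL-4 and 0.31 with LPS.

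In colony cells 3 genes of this list rose and 36 fell against control, with a median of -2.04, and 2 rose and 35 fell against IL-4, with a median of -2.31. Over all genes 71.4% and 71.7% were called in these comparisons, 46.7% and 47.4% lower, with medians of -0.35 and -0.37. Syk, the kinase shared by Dectin-1, Dectin-2 and Mincle, had 23200 and 23500 units with IL-4, 50800 and 55700 with LPS, 2330 and 2110 in colony cells, and 28400 and 28900 in control. It is lowest in colony cells (-3.69 ± 0.08, adjusted p = 1.2e-06) and highest with LPS (0.89 ± 0.08, adjusted p = 4.3e-04). Its adaptor Card9 fell in colony cells (-2.08 ± 0.24, adjusted p = 5.9e-04) and missed the threshold with IL-4 and LPS. The signalling chains Fcer1g, which codes for FcRgamma (-3.10 ± 0.10, adjusted p = 3.6e-06), and Tyrobp, which codes for DAP12 (-3.15 ± 0.09, adjusted p = 2.2e-06), fell there too. Both are also in the pan-leukocyte list given above. The largest falls were those of Il1b (-5.43 ± 0.18, adjusted p = 3.9e-06), Nfatc2 (-4.23 ± 0.07, adjusted p = 5.5e-07), Ptpn6 (-3.85 ± 0.07, adjusted p = 7.5e-07), which codes for a phosphatase of inhibitory receptors, and Nfatc1 (-3.75 ± 0.17, adjusted p = 1.2e-05).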

How the data were processed

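RNA of 8 samples was hybridised to 8 arrays of Agilent design 028005, all on 1 slide, so slide cannot differ between groups. The authors deposited scanner files with spot signals as intensities, background-subtracted by Agilent Feature Extraction (version 10.7.3.1 for grid placement, per the file headers) and not scaled between arrays, and with other columns that per the file headers mark each spot as well above background, saturated, uneven or outlying by 0 or 1. The authors also deposited a value table on the log2 scale. Each of its columns followed the log2 signal less 1 constant per array (r across 34119 probes of at least 0.999964, column medians 2.53 to 2.96), and what that constant is remains unknown. The submitters' processing notes name Partek 6.4 and RMA and give them no role.

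Uneven or outlying spots were left out, signals were taken to log2 and set against the 75th percentile of their array, and replicate spots were averaged. A probe was kept if both arrays of some group had it well above background (39411 probes), and each gene stood by its probe with the highest mean (26504 genes, 37 of them without a value on some array). Printed intensities were scaled to a common 75th percentile of 637 units. limma 3.58.1 in R 4.3.3 fitted 4 group means over all 8 arrays (4 residual and 1.57 prior degrees of freedom), and was tested on simulated data. For IL-4 against control, simulated over 26467 genes, it called 49 of 100 genes given a log2 change of 1. It called 80 of 100 given a change of 2, and 9 unchanged genes. A gene that was not called is therefore not shown to be unchanged. Errors after ± are SEs of log2 differences (n = 2 per group). For a gene whose probes were all dim in 1 group, the fold is a lower bound, set against the higher of its own signal and the lowest signal well above background on each dim array. No member spot was saturated (0 of them). The number of arrays limits the precision.

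The members, lists and tests were chosen with earlier results of these data known. Values are given on every array for the called members with the 6 highest and 6 lowest changes per comparison and for 18 receptors listed with that rule. From the signalling list, up to 4 called genes with the largest changes are given by log2 change, SE and adjusted p, and Syk also on every array. Probe positions are on mm9 and promoters on GRCm38.p6. No gene annotation of mm9 was used here, so no exon or UTR context is stated. Probe sequences of different members matched at most 69.6%, with 0 of 1634 pairs at 80% or more. A planned grouping by sugar-binding motif is not reported. Alternatives were the background correction (normexp with an offset of 50), scaling, filter, deposited table, probe choice, variance trend, replicate block and each array left out. The replicate numbers did not pair the samples: correlations between groups of replicate deviations were -0.16 to 0.05.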

Additional observations from a re-analysis of the deposited data

How the results depend on the processing

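The counts of called lectin genes stayed within 1.5 times those reported under every alternative run: 7 to 13 with IL-4 (reported 10), 17 to 25 with LPS (23), 26 to 34 in colony cells against control (30) and 28 to 32 against IL-4 (31). Leaving out 1 array gave 7 to 13, 17 to 25, 27 to 33 and 28 to 32 in the same order, and without LPS replicate 2 the LPS count was 25 (10 rose and 15 fell). The replicate block gave 9, 22, 29 and 32. It is no sign of pairing, and it lost the calls of Mgl2 in colony cells against control (adjusted p = 0.052) and Clec4a3 with IL-4 (adjusted p = 0.059), and 1 more. Over all genes, IL-4 calls numbered 2667 with median centring and 2566 in the deposited table, against 5049 reported, and the share of LPS calls that were higher was 52.9%, against 42.5% with normexp, 39.9% with median centring and 38.5% in the deposited table. That table holds 31 of the 43 lectin genes and 34119 probes, so its counts are over a smaller set.

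Signs changed with normexp for Clec2l (0.00 with IL-4 and -0.12 with LPS), Mrc2 with LPS (-0.20) and Clec5a in colony cells (-0.49 against control and -0.23 against IL-4). For Clec1b with LPS they changed with the mean of all probes (-0.10) and on its other probes (-0.54 and -0.15). Without LPS replicate 1 and without LPS replicate 2, Clec2g with LPS was 1.14 and -1.15, and Clec12b with LPS was 1.85 and -1.30. The causes were not tested. Dim genes are limited by signal over background: 22 of 37 genes were well above it on all 8 arrays.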
